A study of Plutella xylostella with 12 samples.

Results

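The comparison described here sets female against male larvae of the diamondback moth (Plutella xylostella, a pest of cabbage crops) that were reared at 10 °C. It rests on the 6 libraries whose labels give 10 °C, which are 3 labelled female and 3 labelled male, out of 12 libraries in the series. Per the labels' protocols all larvae came from a laboratory population started from an Australian cabbage field and fed on cabbage. They grew at 25 °C until the early part of the third instar and were then held at 10 °C until mid-fourth instar, when 8 whole bodies were pooled for each library. The other 6 libraries, 3 per sex, came from larvae held at 25 °C throughout. They are used here to choose genes that differ between the sexes, by their 25 °C values alone. The rules of choice were set with earlier results of these data known. The sources used here do not say how larvae were sexed. Because each library is a bulk extract of whole bodies, fewer cells of a type and less RNA per cell cannot be told apart.

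Moths have ZW females and ZZ males, and the testes of male caterpillars already hold developing sperm cells in the last larval instars. Whole-body RNA of male larvae therefore usually carries many transcripts of the male germ line that females lack. In the same instars the fat body makes storage proteins (hexamerins), which are released into the blood and taken up again as amino acid reserves for metamorphosis. In the silk moth Bombyx mori some of these storage proteins accumulate mainly in females. Genes that differed between the sexes in warm-reared larvae were used to see how far the 10 °C libraries follow their labels. They were chosen by their levels and sex difference alone. Whether the listed genes belong to the male germ line or encode storage proteins was not tested for the lists as a whole.

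Gene reads per library ranged from 10183278 to 30106219, and 93.4% to 95.5% of them were uniquely mapped. Reads in introns made up 4.23% to 8.25% and mitochondrial mRNAs 4.09% to 9.85%. Levels are given as CPM, read counts scaled to a common library size with edgeR's TMM factors. The scaling factors ran from 0.746 in male replicate 2 to 1.36 in female replicate 2. These libraries also stood at the ends of the trend of level with transcript length. Taken against the gene's average of the 6 libraries, level changed by 0.30 log2 units per doubling of exon length in female replicate 2 and by -0.34 in male replicate 2, against -0.04 to 0.11 in the other libraries. A gene was highest in female replicate 2 or male replicate 2 for 28.6% and 30.4% of the 14583 tested genes, and lowest there for 29.6% and 33.5%. Fat body and midgut genes of a larval body were present, with the storage protein genes PxAry1 and PxAry2 among the most abundant transcripts and the digestive protease gene Tryp_SPc1 at 922 CPM or more in every library.

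In the genes high in warm-reared males, described next, the libraries labelled female replicate 3 and male replicate 3 go against their labels and female replicate 2 is intermediate. Genes high in warm-reared females did not place female replicate 2 between the others, since their median level was highest there. Many of the other genes below do not follow this order of libraries. Every sex difference given here is therefore one between labelled groups, and whether libraries were exchanged or pools held both sexes was not tested.

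Genes that are strongly male-biased in warm-reared larvae did not separate the labelled sexes at 10 °C. They were chosen from the 25 °C libraries alone, by an edgeR adjusted p below 0.05, a male level of 5 CPM or more, and a male excess of 16-fold or more. Of 374 such male-high genes, 368 passed the filter on low counts at 10 °C. Their median level was 0 CPM in female replicate 1, 2.46 CPM in female replicate 2 and 9.66 CPM in female replicate 3. In males it was 10.1 CPM in replicate 1, 15.9 CPM in replicate 2 and 0.0794 CPM in replicate 3. The library labelled female replicate 3 thus lay beside male replicate 1, and the library labelled male replicate 3 lay beside female replicate 1. Summed over the 368 genes, the level was 200.1, 1897 and 6361 CPM in female replicates 1 to 3 and 6905, 10183 and 250.4 CPM in male replicates 1 to 3.

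**Figure D1:**
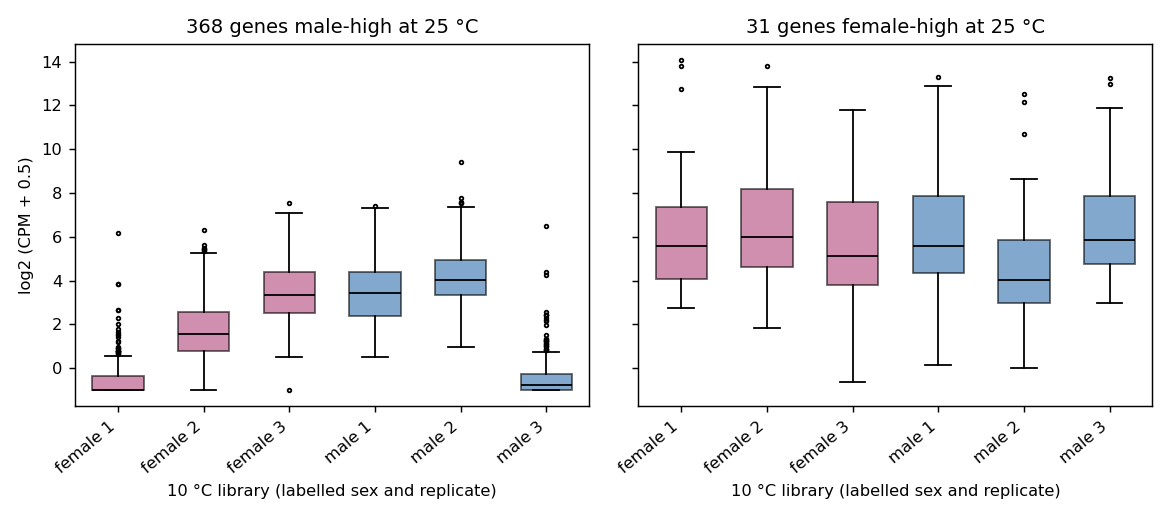
Levels of the male-high genes (left, 368 genes) and the female-high genes (right, 31 genes) in each 10 °C library, as log2 (CPM + 0.5). Boxes span the quartiles with the median as a line, whiskers reach 1.5 times the box height and points lie beyond them. Male replicate 3 (median 0.0794 CPM) sits with female replicate 1 and female replicate 3 (9.66 CPM) with male replicate 1 in the male-high genes.

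Many male-high genes had no reads at all where they were low. In female replicate 1, 195 of the 368 had 0 reads, which allows a level of up to 0.196 CPM (3 reads), and in male replicate 3 it was 167, which allows up to 0.238 CPM. These limits cover counting error only. The number with 0 reads was 5 in female replicate 2, 1 in female replicate 3, and 0 in male replicates 1 and 2. Male replicate 2 had the highest level for 276 of the 368 genes, male replicate 1 for 68 and female replicate 3 for 24. Male replicate 3 had the highest level for 0 of them, as had female replicates 1 and 2.

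The libraries were then set against each other gene by gene. On the log2 CPM scale with a prior count of 2, female replicate 3 differed from male replicate 1 by a median of -0.02 with quartiles at -0.30 and 0.25, and 365 of the 368 genes lay within a factor of 2. Over all tested genes the share within a factor of 2 between these libraries was 85.4%. Female replicate 1 and male replicate 3, where many of these genes had 0 reads, were less close. They lay within a factor of 2 in 282 of the 368 genes (76.6%), against 89.0% of all tested genes. Female replicate 2 stood between the extremes. It was above female replicate 1 in 359 of the 368 genes and below female replicate 3 in 367, by a median log2 of -1.90 with quartiles at -2.36 and -1.49. Male replicate 3 was below male replicate 1 and below male replicate 2 in all 368 genes, and below female replicate 3 in 367.

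LOC105394744 and LOC105384123 show this for single genes. They had the smallest p among the male-high genes at 25 °C, and none of the sources used here gives them a product name. LOC105394744 (scaffold NW_011952580, 39670 to 41612, 3 exons) stood at 0.913, 4.20 and 17.6 CPM in female replicates 1 to 3 and at 14.4, 24.9 and 0.0794 CPM in male replicates 1 to 3. The last of these is 1 read. LOC105384123 (NW_011952104, 531049 to 535472, 12 exons) stood at 1.04, 12.5 and 43.4 CPM in females and at 45.8, 58.4 and 1.35 CPM in males. In both genes each group holds high and low libraries, so the groups overlap. Their log2 differences, female against male, were -0.80 ± 1.48 (SE) and -0.89 ± 1.39 (n = 3 per sex, edgeR adjusted p = 0.987 for both). PxANTI2, with a log2 difference of -3.82 at 25 °C, was likewise lowest in female replicate 1 and male replicate 3 and highest in male replicate 2, with 3.52, 8.17 and 34.4 CPM in females and 38.4, 74.9 and 1.67 CPM in males. At 10 °C its log2 difference was -1.32 ± 1.24 (edgeR adjusted p = 0.987).

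As labelled, females were lower than males in the fitted value of 367 of the 368 male-high genes, with a median log2 difference of -1.09, while 54.1% of all tested genes had a negative value and the median over all was -0.05. None of the 368 passed the test (edgeR adjusted p below 0.05), and in 0 of them did the 3 female libraries lie wholly above or below the 3 male libraries, against 3.99% of all tested genes. The genes with 1 exon, 63 of the 368, had a median of -1.17, and the 305 with 2 or more exons had -1.07. The size of the median depended on single libraries. It was -0.54 without female replicate 1, -0.32 without male replicate 2, -1.67 without male replicate 3 and -2.76 without female replicate 3, and voom with library quality weights turned it to 0.52. Leaving out both libraries numbered 3 gave -3.28, with 368 of 368 genes lower in females and 363 of them without overlap between the 2 remaining libraries of each sex. In that reduced comparison 16.3% of all tested genes had both females below both males. The adjusted test still called 0 of the 368. The libraries left out are those that go against their labels in these same genes, so the reduced counts do not test the labels of the remaining ones.

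Genes that are female-biased at 25 °C did not separate the labelled sexes either. The list of 33 female-high genes was also taken from the 25 °C libraries (edgeR adjusted p below 0.05, higher in females, at least 5 CPM in females), and 31 passed the filter at 10 °C. Their median level was 47.6, 62.4 and 34.5 CPM in female replicates 1 to 3. In male replicates 1 to 3 it was 47.8, 15.8 and 57.1 CPM. Male replicate 2 was thus lowest, and male replicates 1 and 3 both lay between female replicates 1 and 2. The summed level of the 31 genes was 40923, 30927 and 9969 CPM in female replicates 1 to 3. In male replicates 1 to 3 it was 23922, 13089.6 and 25564 CPM. By this sum, to which the abundant genes LOC105388120, LOC105381553 and PxSP1 give most, female replicate 3 was the lowest of the 6. Male replicate 2 had the lowest level for 20 of the 31 genes and female replicate 3 for 4, while female replicate 2 had the highest for 14 and male replicate 3 for 6. Fitted values were higher in females for 26 and lower for 5, with a median log2 difference of 0.46, and 0 passed the test. In 0 of the 31 genes were the groups apart, against 3.99% of all tested genes, a share that would come to about 1 gene in a list of this size. The median was 0.01 without female replicate 2 and 1.05 without both libraries numbered 3, where 26 genes were higher and 5 lower. It was 0.25 with the exon-length trend removed and -0.23 in voom.

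Among female-high genes with a symbol was PxSP1, a storage protein gene (LOC105388119, scaffold NW_011952208, 540138 to 543435). It stood at 6856, 5405 and 1057 CPM in female replicates 1 to 3 and at 3131, 1660.5 and 3745 CPM in male replicates 1 to 3. Female replicates 1 and 2 were above every male, and female replicate 3 was below every male. The means were 4440 ± 3018 CPM in females and 2846 ± 1071 CPM in males (SD, n = 3 each), a log2 difference of 0.64 ± 0.73 (edgeR adjusted p = 0.987). Its neighbour LOC105388120 (546070 to 548955), on the opposite strand, followed the same order in females, with 16928, 14076 and 3582 CPM, and had 9931, 5783 and 9805 CPM in males. LOC105388121 (549582 to 554769) lies next to it and was far less abundant, at 15.3, 16.4 and 6.98 CPM in females and 3.78, 5.74 and 23.7 CPM in males. Log2 differences of these neighbours, which were named after their values were seen, were 0.44 ± 0.67 and 0.22 ± 0.73 (edgeR adjusted p = 0.987 for both).

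LOC105386064 and LOC105381553 had the smallest p among female-high genes at 25 °C. LOC105386064 was at 67.0, 100.8 and 28.5 CPM in females and at 44.4, 17.4 and 76.1 CPM in males, so its lowest female library lay below 2 of the males. LOC105381553, with 17.4% of its reads mapped uniquely and so of uncertain origin, was at 14137, 7381 and 2294 CPM in females and at 7621, 4516 and 8082 CPM in males. Their log2 differences were 0.51 ± 0.64 and 0.24 ± 0.70 (edgeR adjusted p = 0.987 for both). LOC105382854 and LOC105398194 were picked out after their values were seen, because they were high in female replicates 1 and 2 and male replicate 3. LOC105382854 stood at 403, 302 and 63.0 CPM in females and at 49.8, 28.2 and 366 CPM in males. LOC105398194 stood at 12.5, 26.5 and 0.141 CPM in females and at 0.601, 0.507 and 11.7 CPM in males. LOC105382854 thus mirrors the order of the male-high genes, while LOC105398194 was highest in female replicate 2 and lowest in female replicate 3. These values chose both genes and say nothing of the other 29 genes.

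Across the whole transcriptome no gene passed the test between the labelled sexes at 10 °C. The edgeR quasi-likelihood test on the 6 libraries called 0 of 14583 genes (0% of those tested) at a Benjamini-Hochberg adjusted p below 0.05, and the smallest adjusted p was 0.987. At an unadjusted p below 0.05 there were 89 genes, 0.61% of those tested. The same fit of the 25 °C libraries called 592 of 12484 genes (4.74%) and put 18.2% at an unadjusted p below 0.05. The common biological coefficient of variation was 56.7% at 10 °C and 50.9% at 25 °C. In 582 genes (3.99%) the 3 females and the 3 males did not overlap, with females above males in 350 (2.4%) and below in 232 (1.59%). DESeq2 called 1 gene, LOC105390872, and voom 0. Without both libraries numbered 3 edgeR again called 0, of 14804 genes, with 586 at an unadjusted p below 0.05. Each library is its own pool of larvae, so a p-value here reflects pool-to-pool spread.

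**Figure D2:**
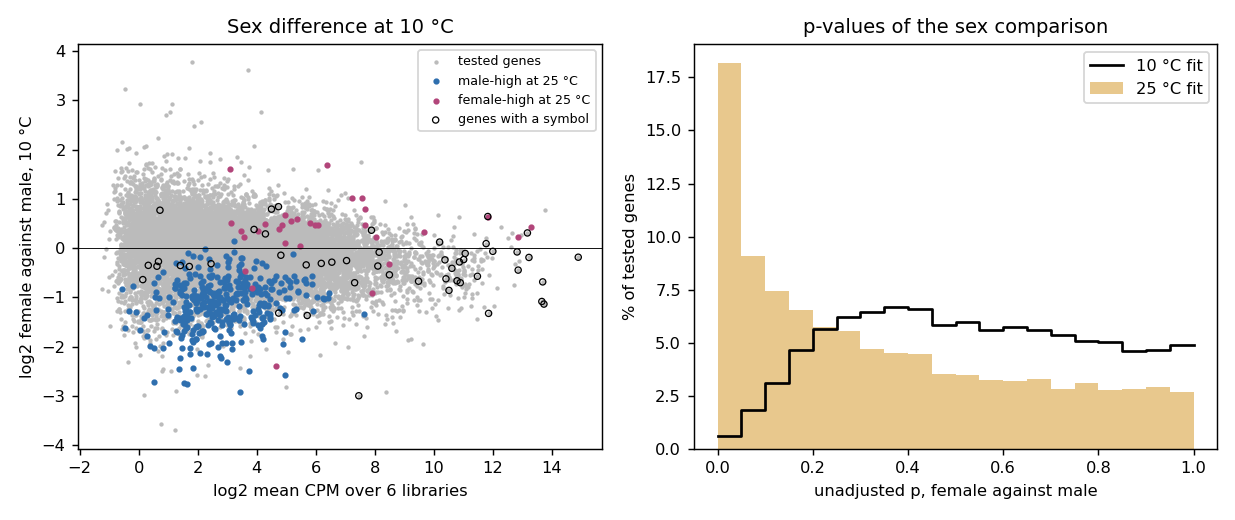
Left, log2 difference of female against male at 10 °C against log2 mean CPM for the 14583 tested genes, with male-high genes (blue), female-high genes (magenta) and genes with a symbol (black rings) marked. Right, unadjusted p-values of the sex comparison in bins of 0.05, as percent of tested genes, at 10 °C (line) and 25 °C (bars): the first bin holds 0.61% at 10 °C and 18.2% at 25 °C.

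The genes with the smallest p in each direction are locus identifiers without a product name, and none was called in edgeR. LOC105390872 (NW_011952316, 332682 to 337977) stood at 12.5, 15.3 and 44.8 CPM in female replicates 1 to 3 and at 2.47, 1.86 and 1.51 CPM in male replicates 1 to 3, so every female was above every male. Its log2 difference was 3.62 ± 0.61 (edgeR adjusted p = 0.987, DESeq2 adjusted p = 0.000112). Most of its reads lay in introns, with 100, 204 and 622 intron reads against 92, 8 and 13 exon reads in females. Exon reads gave 5.998, 0.579 and 0.916 CPM in females and 1.31, 0.591 and 0.238 CPM in males, and there the groups overlapped. The log2 difference on exon reads was 1.80. LOC105392609 (NW_011952410, 271636 to 274236) stood at 17.4, 19.46 and 13.7 CPM in females and at 2.65, 7.34 and 5.16 CPM in males (log2 1.74 ± 0.46, edgeR adjusted p = 0.987). Of its reads 0% mapped uniquely, so they cannot be assigned to this locus.

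In the other direction, LOC105397188 (NW_011953060, 2793 to 3679) was at 29.1, 35.4 and 101.2 CPM in females and at 141.7, 334 and 185 CPM in males, with every male above every female. The log2 difference was -1.996 ± 0.60 (edgeR adjusted p = 0.987), and nearly all of its reads were in exons. Its log2 difference at 25 °C was 0.23 ± 0.56. LOC105383508 (NW_011952091, 876747 to 879546) had 3, 5 and 3 reads in females and 41, 74 and 22 reads in males, or 0.196, 0.362 and 0.211 CPM against 1.45, 6.25 and 1.75 CPM. Its log2 difference was -3.57 ± 0.80 (edgeR adjusted p = 0.987). Apart from 3 reads in male replicate 2 all of its reads were in introns. LOC105397188 is thus the gene of these 4 whose difference was carried by unique exon reads, with 94.6% of its reads mapped uniquely.

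Of the 52 genes with a symbol or a mitochondrial name, 49 were tested. None passed the test, and in 0 of the 49 were the groups apart (3.99% among all tested genes). The log2 difference was smaller than its SE in 35 of them and larger in 14. Male replicate 2 held the highest level for 24 of the 49 and female replicate 2 the lowest for 27. The groups below follow the genes' known roles, and the edgeR adjusted p was at least 0.987 for each of these genes.

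**Figure D3:**
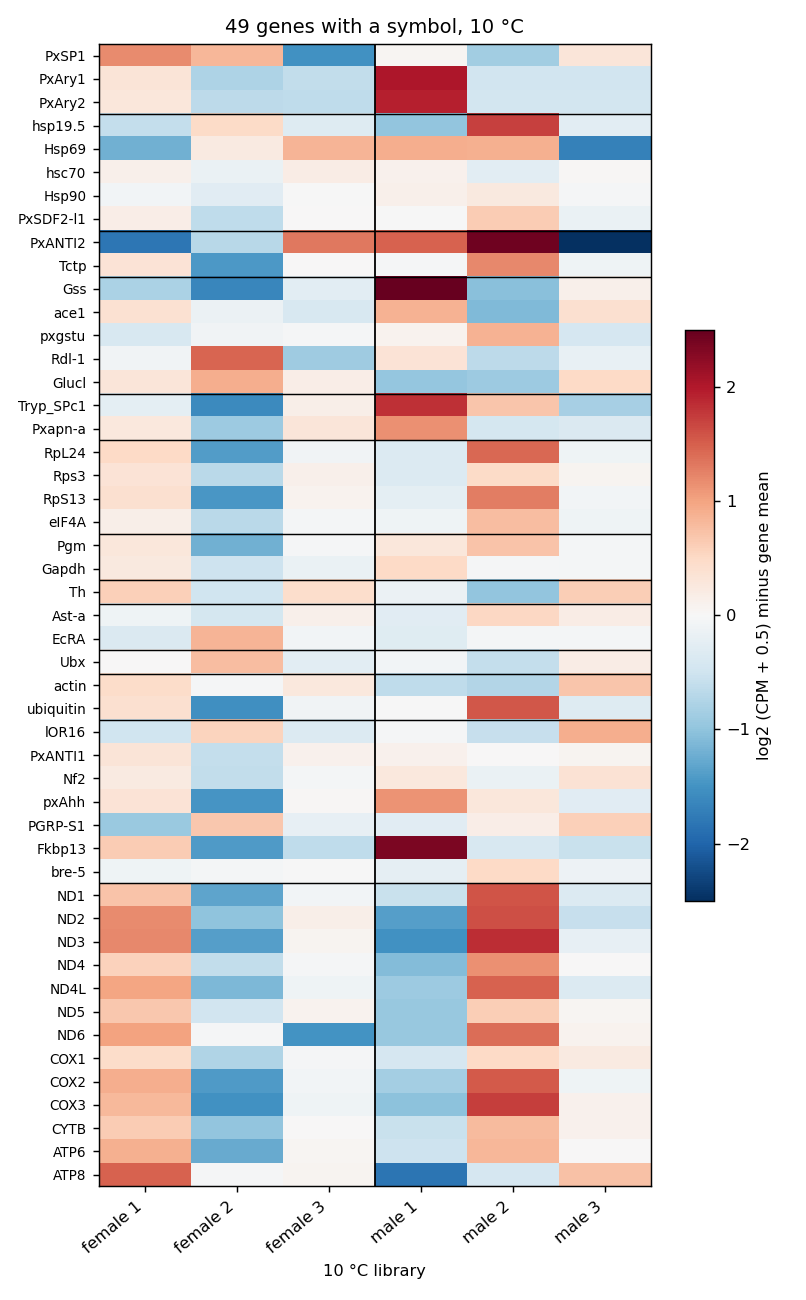
Level of the 49 tested genes with a symbol in each 10 °C library, as log2 (CPM + 0.5) minus the gene's mean over the 6 libraries, on a colour scale cut at 2.5. Lines separate gene groups and the labelled sexes. Male replicate 1 stands out for PxAry1, PxAry2, Gss, Tryp_SPc1 and Fkbp13, and male replicate 2 for mitochondrial and ribosomal genes.

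The arylphorin genes and both digestive genes with a symbol were highest in male replicate 1, while the third storage gene, PxSP1, was highest in female replicate 1. The arylphorin gene PxAry1 (NW_011952208, 398647 to 401687), of the hexamerin family, stood at 12869.5, 5995 and 6696 CPM in female replicates 1 to 3 and at 41506, 7306 and 7327 CPM in male replicates 1 to 3. PxAry2, on the same scaffold (406766 to 409981), ran beside it at 12181, 6343 and 6423 CPM in females and 38317, 7265 and 7237 CPM in males. The log2 differences were -1.14 ± 0.84 and -1.08 ± 0.81, and they changed sign to 0.22 and 0.20 without male replicate 1. Tryp_SPc1, a trypsin-like serine protease gene, was at 2344, 922 and 3090.5 CPM in females and 9821, 4515 and 1571 CPM in males (log2 -1.32 ± 0.77, and -0.52 without male replicate 1). Pxapn-a, an aminopeptidase N gene of the midgut surface with 56.0% of its reads mapped uniquely, was at 54.9, 24.1 and 56.7 CPM in females and 102.4, 33.5 and 35.7 CPM in males.

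Gss, whose sulfatase product disarms the glucosinolates of cabbage, had the largest log2 difference of the genes with a symbol, -2.995 ± 1.18. It was at 39.0, 21.7 and 57.1 CPM in females and at 831, 32.8 and 74.8 CPM in males. At 25 °C its log2 difference had the opposite sign, 4.50 ± 1.18, and was not called (edgeR adjusted p = 0.0818). The difference between the sex contrasts at 10 °C and 25 °C, -7.35 ± 1.83, was not called either (edgeR adjusted p = 0.548). A single library carried the 10 °C difference, since the other 2 males lay among or just above the females. It was -0.45 without male replicate 1. Fkbp13, which encodes an FK506-binding protein, had the same form, with 53.5, 12.6 and 21.9 CPM in females and 177.6, 26.0 and 23.2 CPM in males. Its log2 difference was -1.37 ± 0.91, and 0.26 without male replicate 1. pxAhh was at 792, 226 and 640.1 CPM in females and 1361, 761 and 518 CPM in males (log2 -0.67 ± 0.59). Male replicate 1 is also the most deeply sequenced library, with 30106219 gene reads; whether depth has a part in these values was not tested.

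**Figure D4:**
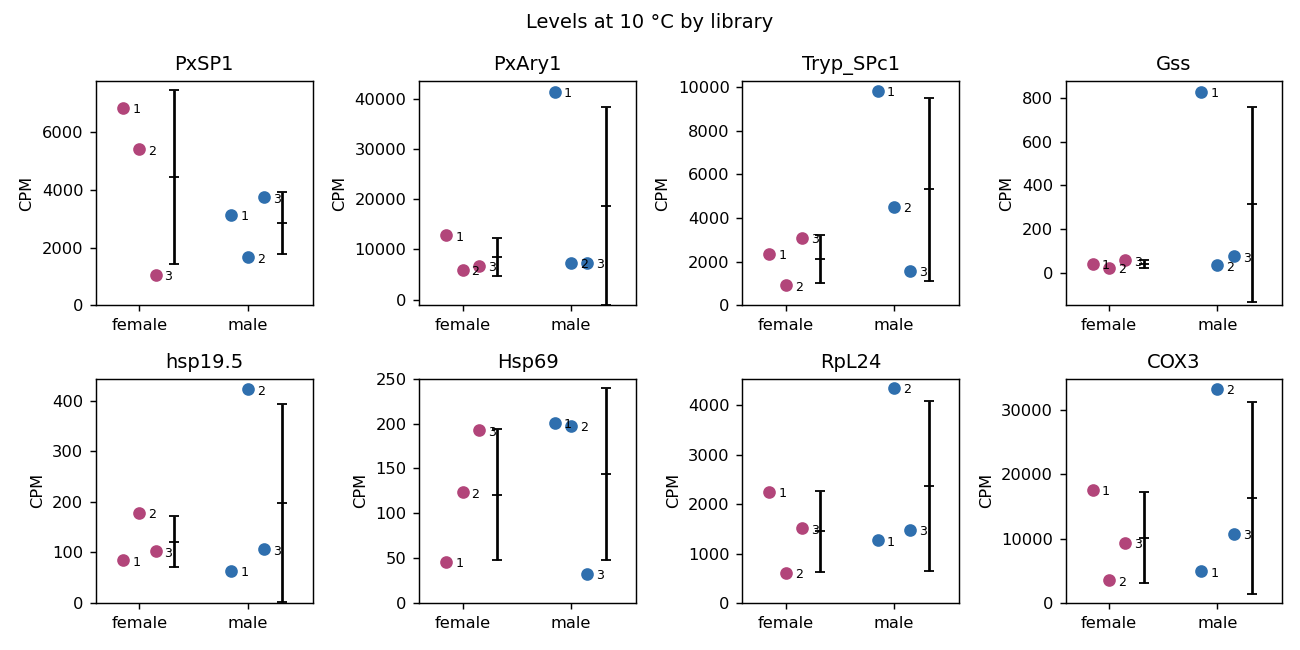
CPM of 8 genes at 10 °C in each library, with female libraries in magenta and male libraries in blue, numbered by replicate, and bars for mean ± SD (n = 3). In the plots of PxAry1, Tryp_SPc1 and Gss male replicate 1 is the top point, in those of hsp19.5, RpL24 and COX3 male replicate 2, and in that of Hsp69 the lowest points are female replicate 1 and male replicate 3.

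Among heat shock genes the inducible members varied most and the constitutive ones least. The small heat shock gene hsp19.5 was at 84.4, 178 and 102.5 CPM in females and 64.1, 423 and 106 CPM in males, highest in male replicate 2. Hsp69, a relative of hsp70, was at 45.9, 124 and 192 CPM in females and 201, 198 and 32.8 CPM in males. Its lowest libraries were male replicate 3 and female replicate 1, as in the male-high genes, which was not so for the other heat shock genes. At 25 °C its log2 difference was -1.66 ± 0.55 and was not called (edgeR adjusted p = 0.164). The constitutive chaperone gene hsc70 stayed between 2886 and 3936 CPM and Hsp90, a chaperone of signalling proteins, between 1094 and 1576 CPM over all 6 libraries. PxSDF2-l1, related to stromal cell-derived factor 2, stayed between 45.4 and 109 CPM. All 5 had log2 differences within their SE, from -0.70 for hsp19.5 to 0.09 for hsc70.

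All 4 translation genes, ubiquitin and Tctp were highest in male replicate 2 and lowest in female replicate 2. The ribosomal protein gene RpL24 was at 2247, 607 and 1507 CPM in females and 1267, 4350 and 1477 CPM in males (log2 -0.70 ± 0.69, and 0.09 without male replicate 2). RpS13 followed at 1552, 430.4 and 1241 CPM in females and 986, 2861 and 1113 CPM in males. Rps3 and the initiation factor gene eIF4A had narrower ranges, 1292 to 2875 CPM and 944 to 2575 CPM. The ubiquitin gene was at 1587, 416 and 1122 CPM in females and 1188, 3507 and 965 CPM in males (log2 -0.86 ± 0.70), and Tctp, a growth-related gene, at 1971, 571 and 1566 CPM in females and 1506, 3553 and 1443 CPM in males (log2 -0.66 ± 0.62). The gene models of RpL24, RpS13, ubiquitin and Tctp have 569, 575, 585 and 883 bp of exon. Those of Rps3 and eIF4A, with the same highest and lowest library, have 847 and 1860 bp. Male replicate 2 and female replicate 2 are the libraries at the ends of the length trend given above. With that trend removed the log2 differences were -0.46 for RpL24, -0.61 for ubiquitin and -0.47 for Tctp. Whether exon length has a part in the order of libraries was not tested.

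The 13 mitochondrial mRNAs, which encode subunits of the respiratory chain and ATP synthase, had a median log2 difference of -0.23, with 11 negative, 2 positive and 0 called. For 12 of the 13 the difference was within its SE. Male replicate 2 was highest for 10 of them and female replicate 1 for 3. Female replicate 2 was lowest for 7 and male replicate 1 for 5. COX3, a cytochrome c oxidase subunit gene, was at 17617, 3515 and 9306 CPM in females and 4909, 33234 and 10779.9 CPM in males. COX1 of the same complex had a smaller spread, from 17369 to 41284 CPM. ND1, of NADH dehydrogenase, was at 3784, 918 and 2191 CPM in females and 1567, 6862 and 1812 CPM in males. ATP8, an ATP synthase subunit gene of 168 bp, differed in its order, with 59.8, 20.8 and 22.3 CPM in females and 5.69, 15.9 and 36.0 CPM in males (log2 0.84 ± 0.72).

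Developmental, hormone and nerve genes also overlapped between the labelled sexes. The ecdysone receptor gene EcRA was at 176, 409 and 215 CPM in females and 183.5, 219.6 and 219 CPM in males, with female replicate 2 alone above the rest. The Hox gene Ubx was at 14.4, 24.7 and 11.9 CPM in females and 13.6, 9.29 and 16.3 CPM in males. Th, the tyrosine hydroxylase gene of cuticle tanning, ranged from 8.86 to 28.0 CPM and the allatostatin A gene Ast-a from 3.83 to 7.85 CPM. Glucl, a glutamate-gated chloride channel gene and insecticide target with 66.7% of its reads mapped uniquely, was at 25.0, 38.3 and 22.8 CPM in females and 10.2, 10.6 and 29.0 CPM in males (log2 0.79 ± 0.50). Male replicate 3 again lay among the females. Of the scarce genes, ace1 (acetylcholinesterase) stayed at or below 4.77 CPM, Rdl-1 (a GABA receptor subunit) at or below 4.56 CPM and pxgstu (a glutathione S-transferase, log2 -0.64 ± 0.63) at or below 2.28 CPM.

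Pgm and Gapdh, of sugar metabolism, had log2 differences of -0.54 ± 0.47 and -0.28 ± 0.42. Pgm was at 409, 147 and 327 CPM in females and 409, 551 and 325 CPM in males, with female replicate 2 lowest. The gene with the symbol actin, with 54.2% of its reads mapped uniquely, was at 11855, 8431 and 10359 CPM in females and 5554, 5221 and 13972 CPM in males, so that male replicate 3 was the highest library and the other males the lowest. PxANTI1 stayed between 2682 and 5010 CPM, and bre-5, named for a Caenorhabditis elegans glycosyltransferase gene needed for toxicity of Bacillus thuringiensis toxin, between 23.9 and 39.7 CPM. The immune gene PGRP-S1, lOR16 and Nf2 were all at or below 2.60 CPM. Rdl-2, CSP3 and lOR18 had 50, 3 and 8 reads over the 6 libraries and were not tested.

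Differences between the labelled sexes at 10 °C mostly had the sign of those at 25 °C, and with all 6 libraries they were smaller. Over 12270 genes tested at both temperatures, in fits that share no library, Pearson's r of the log2 differences was 0.531 and Spearman's rho 0.556, and 69.9% had the same sign. These values are across genes, which are not independent replicates. Without the male-high and female-high genes r was 0.452 over 11871 genes. The median absolute log2 difference was 0.34 at 10 °C and 0.56 at 25 °C. Leaving out both 10 °C libraries numbered 3 raised r to 0.734, and to 0.614 without the male-high and female-high genes. Those libraries go against their labels in genes chosen by their sex difference at 25 °C. The rise in r therefore does not test how alike the temperatures are. Without those libraries the median absolute difference at 10 °C was 0.56. It rests on 2 libraries per sex against 3 at 25 °C, and fewer libraries can by themselves enlarge it, so the sizes cannot be compared. The difference between the sex contrasts at 10 °C and 25 °C, tested in a single fit of all 12 libraries, passed for 0 of 15027 genes (0%) in edgeR. The smallest edgeR adjusted p was 0.548, and 1351 genes (8.99%) had an unadjusted p below 0.05. Of the 368 male-high genes 280 were among them, with a median log2 value of 5.34 against -0.22 over all genes. These genes were chosen by their 25 °C difference, and both 10 °C libraries numbered 3 go against their labels in them. Both facts enter these values. DESeq2 called 15 of the 15027 genes for the difference between the contrasts.

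**Figure D5:**
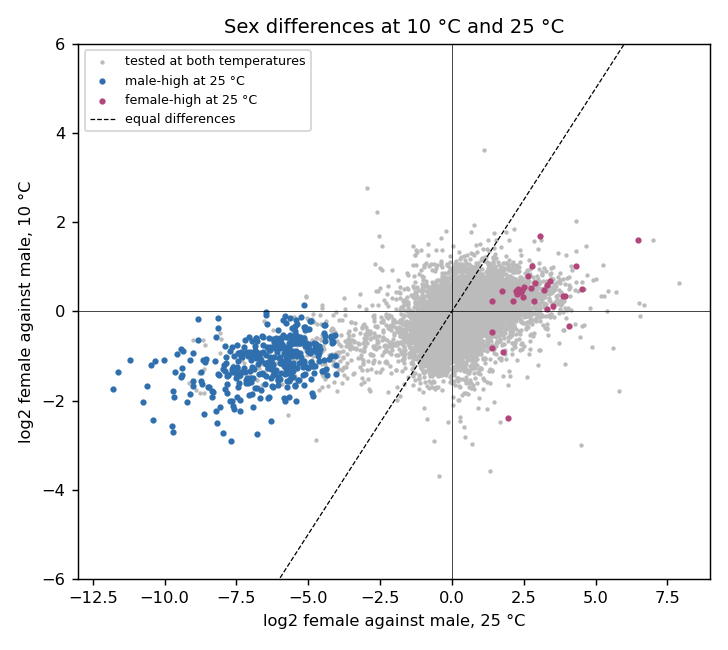
Log2 difference of female against male at 10 °C (vertical) against that at 25 °C (horizontal) for the 12270 genes tested at both temperatures, with male-high genes in blue and female-high genes in magenta. The dashed line marks equal differences; male-high genes, chosen for their 25 °C values, have a median of -1.09 at 10 °C.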

How the data were processed

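Poly(A) RNA of whole larval bodies went into NEBNext Ultra II libraries, read from both ends on a NovaSeq, per the labels' protocols. Aligner, counter, genome build and strand setting: not given in the sources used here. Values of overlapping or antisense genes are therefore uncertain. The deposited tables hold raw read counts for each gene, in total and split by uniqueness and by exon or intron. Total reads include reads that match several genes. Of 18895 locus identifiers, 10698 were found in the RefSeq table of assembly ilPluXylo3.1, from which only symbols were taken, and 39 gained a symbol.

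Total counts were tested with edgeR 4.0.16 in R 4.3.3 (TMM, filterByExpr at 10 reads, 15 in total, robust quasi-likelihood fit, sex as the only term) on the 6 libraries of 10 °C, with p-values adjusted over all 14583 genes and called below 0.05. The SE is the absolute log2 difference divided by the square root of F. The script was tested on simulated data. DESeq2 1.42.0, limma 3.58.1 voom, other filters, scalings and counts, and fits without single libraries were alternatives. Depth was 10183278 to 30106219 reads per library. No pair of libraries matched within counting error. The comparison, the gene lists and the tests were chosen with earlier results of these data known, and LOC105388120, LOC105388121, LOC105382854 and LOC105398194 were named after their values were seen. Otherwise the rule named each gene with a symbol, the 2 identifiers of smallest p in each direction, and the 2 male-high and 2 female-high identifiers of smallest p at 25 °C.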

Additional observations from a re-analysis of the deposited data

How the results depend on the processing

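The count of 0 genes called at 10 °C held under each alternative in edgeR and voom: other size factors, looser and stricter filters, all 12 libraries in the fit, unique or exon reads, the exon-length trend removed, no robust option, and leaving out single libraries (0 to 0). DESeq2 called 1 gene, LOC105390872. A replicate block also gave 0 calls, with 19 genes at an unadjusted p below 0.05. Deviations of same-numbered libraries from the mean of their labelled sex correlated at -0.56, -0.39 and -0.76. Both libraries numbered 3 go against their labels in male-high genes, which enters these values. They therefore cannot decide whether the numbers pair the libraries. Without both libraries numbered 3 the genes with groups apart numbered 4790 of 14804 (32.4%). Groups of 2 against 2 libraries overlap less easily, and the libraries left out go against their labels in male-high genes. Their shares in this count cannot be told apart. Without these libraries r between the temperatures was 0.734. Both values without them were added after seeing the data. For the interaction DESeq2 called 15 of 15027 genes.

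Of 61 named genes, the sign of the log2 difference changed in 28 under voom with quality weights, 20 without male replicate 2, 11 without female replicate 2, 8 without male replicate 1, 5 with the length trend removed, 4 without female replicate 1, 3 with the block, and 2 without either library numbered 3 or without both. The voom fit turned the median of the male-high genes to 0.52 and that of the female-high genes to -0.23, and, among genes with a difference above its SE, PxSP1 and the named identifiers, changed the sign of PxANTI2 (0.74), PxSP1 (-0.80), LOC105394744 (1.65), LOC105384123 (0.61), LOC105386064 (-0.45), LOC105381553 (-0.95), LOC105388120 (-0.71), LOC105382854 (-0.22) and LOC105398194 (-1.48). LOC105381553 was at -0.020 with the block. The cause was not tested. Leaving out single libraries gave medians from -2.76 to -0.32 for the male-high and from 0.01 to 0.86 for the female-high genes. Among the same genes, signs changed within the ranges of PxAry1 (-1.56 to 0.22), PxAry2 (-1.47 to 0.20), RpL24 (-1.16 to 0.088), Fkbp13 (-2.13 to 0.26), LOC105394744 (-2.38 to 0.055), LOC105381553 (-0.48 to 0.67) and LOC105388121 (-0.19 to 1.46). None of these was called. Counts of 1 to 3 reads per library in scarce genes limit what can be seen.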
